A study of Homo sapiens with 6 samples.

Results

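Under erlotinib and the KDM5 inhibitor CPI-455, 58 of 164 PC9 cells held at least 1 unique molecular identifier (UMI, a tag that counts 1 captured transcript) of KRT17, and 106 held none. PC9 is an established line grown from a human lung adenocarcinoma whose EGFR carries an activating mutation. The 164 cells were the barcodes of that library with at least 1000 UMIs and at most 20% mitochondrial UMIs, of 599 barcodes in the library and 1769 cells kept by the same limits over 6 libraries. The classes were chosen by a measured value, the KRT17 count of each cell, so KRT17's own level is a description, and so is every other gene compared between these cells.

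Transcripts of single cells were counted by Drop-seq, a droplet method, with 1 library per condition. The CPI-455 library received 6.25 µM CPI-455 for 4 days and 2 µM erlotinib, an EGFR kinase inhibitor, for 1 day, in 5% serum without virus. The labels place the start of erlotinib in 2 ways, so its timing within the 4 days is not settled. In 10% serum, 3 more libraries received 2 µM erlotinib for 1 day, begun 4 days after transduction with KDM5A shRNA, 5 days after transduction with KDM5A and KDM5B shRNA, or 6 days after transduction with KDM5A cDNA. The shRNAs were in the GFP vector pLVTHM and the cDNA in a pLenti-CMV-Hygro-3xFLAG-HA vector. The 2 drug-free libraries were cells with scrambled shRNA in 10% serum and untreated cells in 5% serum. Every erlotinib library thus carried a KDM5 manipulation, and no CPI-455 library without erlotinib was analysed here. KDM5A stood at 56.8 and 39.7 CPM (a gene's UMIs scaled to a common library total) in the libraries labelled KDM5A shRNA and KDM5A with KDM5B shRNA, against 83.7 in the scrambled library and 161 with the cDNA. KDM5B stood at 133 CPM in the library labelled with its shRNA, against 45.8 in the drug-free scrambled library. In the other erlotinib libraries it stood at 151 (KDM5A shRNA), 102 (CPI-455) and 89.2 CPM (KDM5A cDNA). Drug and shRNA cannot be told apart in the comparison with scrambled cells, so the transcript does not settle that label. An inhibitor of the enzyme need not alter its transcript, and KDM5A was at 121 CPM with CPI-455 and 120.0 CPM untreated.

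Keratin 17 is a filament protein of basal and appendage epithelium that epithelial cells switch on during wounding and stress. Keratin filaments pair a type I chain, such as KRT17, KRT16, KRT18 or KRT19, with a type II chain such as KRT7 or KRT8. KDM5 enzymes remove methyl groups from lysine 4 of histone H3, and KDM5A has been linked to the survival of PC9 cells under EGFR inhibitors. The question here was which other transcripts separated cells with and without KRT17 under CPI-455, and whether the same split gave similar genes under the other KDM5 manipulations.

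KRT17 was spread very unevenly over the CPI-455 cells. In all, 34 cells held 1 KRT17 UMI, 9 held 2, 3 held 3 and 1 held 4. The remaining 11 cells held 5, 5, 6, 6, 7, 7, 10, 11, 20, 26 and 54. Those 11 cells carried 157 of the 222 KRT17 UMIs, or 70.7%, and the top 3 carried 100. An even share of KRT17 in every cell would have left 104 cells positive at these depths, against the 58 observed. KRT17 stood at 262 CPM (95% Poisson interval 229 to 299) over all kept cells, and at 84.5 CPM (65 UMIs) once the 11 cells were set aside.

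**Figure D1:**
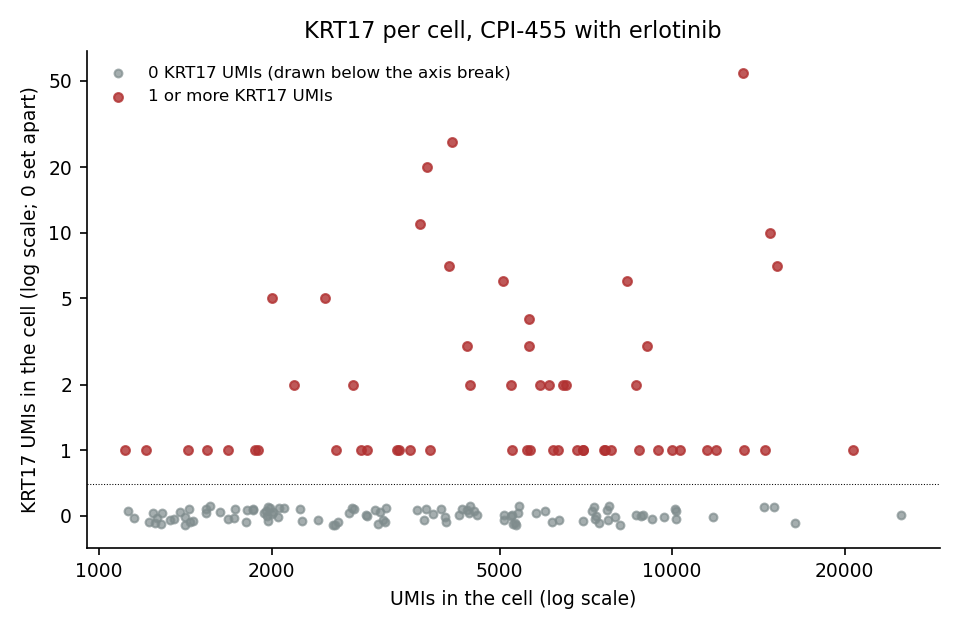
KRT17 UMIs of each of the 164 CPI-455 cells (vertical, log scale, with cells at 0 drawn below the dotted line) against the UMIs of the cell (horizontal, log scale). The 11 cells with 5 or more KRT17 UMIs are spread over most of the range of depth, and 34 of the 58 positive cells hold 1.

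The share of positive cells was 35.4% (58 of 164, 95% Clopper-Pearson interval 28.1 to 43.2). It depended on depth, since positive cells had a median of 5633 UMIs (1112 to 20673) and negative cells 3138 (1124 to 25071). In 4 equal groups of cells from shallow to deep, 7, 13, 20 and 18 of 41 cells were positive. After each cell was thinned to 1000 UMIs, 23 cells were positive, or 14% (9.10 to 20.3). Thinned shares were 61.7% under KDM5A shRNA, 51.6% under KDM5A plus KDM5B shRNA, 32.4% under KDM5A cDNA, 3.60% in scrambled cells and 2.19% in untreated cells. Unthinned shares were 74.4%, 71.0%, 49.5%, 7.21% and 7.66% in that order. The CPI-455 library was thus the lowest of the 4 erlotinib libraries and stood above both drug-free ones, and its thinned interval overlapped none of the other 5 shares. With 1 library per condition this order has no test, and intervals cover counting error only.

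Some single KRT17 UMIs could come from free RNA in the droplets. In the CPI-455 library the 392 barcodes under 500 UMIs, which hold mostly free RNA or debris, had 15 KRT17 UMIs among 40380, or 371 CPM (208 to 613), an interval that holds the level of the kept cells. The part of free RNA in the 34 cells with 1 KRT17 UMI was not tested. At the limits, 1 of 3 cells at 1000 to 1200 UMIs was positive, 0 of 13 barcodes at 800 to under 1000, 3 of 11 cells with 15 to 20% mitochondrial UMIs, and 1 of 3 above 20%. KRT17 has near-identical pseudogene copies. KRT17P1, KRT17P2 and KRT17P3 had no row in the CPI-455 table, and in the KDM5A shRNA library they held 4, 1 and 15 UMIs against 4288 of KRT17. No barcode of a kept cell was shared between libraries.

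Both classes carried transcripts of simple epithelium. EPCAM, an epithelial adhesion molecule, stood at 413 CPM in positive and 511 CPM in negative cells, and the simple keratins KRT7, KRT8, KRT18 and KRT19 together took a median of 1.04% of UMIs per positive cell (0.281 to 2.52) and 1.06% per negative cell (0.413 to 2.22). The log2 ratio of positive over negative cells, taken on pooled shares of UMIs other than KRT17, was -0.02 for KRT7, 0.10 for KRT8, -0.01 for KRT18 and 0.03 for KRT19. KRT14, the basal keratin nearest to KRT17 in use, held 2 UMIs in all 164 cells. KRT5, a basal type II keratin, held 15 and 9 UMIs, and KRT6A, a wound keratin, 8 and 12. Immune markers held 1 and 1 UMIs, fibroblast markers 2 and 2, and endothelial markers 1 and 2, with 8 of 10, 7 of 8 and 4 of 6 members of these lists at 0 or with no row. Markers of those cell types were therefore at or near 0 in both classes.

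Among 3100 genes with at least 50 UMIs over both classes, 167 (5.39%) had a ratio of at least 1.5 in positive cells and 139 (4.48%) a ratio of at most the inverse. The median log2 ratio was 0.01, and 51.3% of genes lay above 0, so the classes were close in most transcripts. Depth moved these counts: after thinning to 1000 UMIs fewer genes reached 50 UMIs, and 29 and 21 passed. With 1 library and cells that are no replicates, no gene was tested in this contrast, and the intervals below are exact 95% intervals of a ratio of 2 counts.

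The genes with the highest ratios in positive cells included keratinocyte and basal genes. KRT16, the wound-response keratin that shares type II partners with KRT17, had 88 UMIs in positive cells and 59 in negative cells, a log2 ratio of 0.97 (0.48 to 1.47). S100A2, a calcium-binding protein of basal epithelium, had 128 and 88 UMIs, at 0.93 (0.53 to 1.34). SFN, the epithelial 14-3-3 protein sigma, had 187 and 144 UMIs, at 0.77 (0.45 to 1.09). KRT15, another basal keratin, went the other way, with 22 and 53 UMIs and -0.88 (-1.67 to -0.14). It was named after its value was seen. A list of 12 keratins of basal and stressed epithelium, KRT17 left out, had a pooled log2 ratio of 0.01 (-0.14 to 0.15), with KRT13 giving 493 of its 660 UMIs in positive cells.

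Other high ratios belonged to genes of varied function. BCAT1, a cytosolic aminotransferase for branched-chain amino acids, had 100 UMIs in positive and 50 in negative cells, a log2 ratio of 1.39 (0.89 to 1.91). In the 3 libraries with erlotinib after transduction BCAT1 stood at 1.65, -0.36 and 0.48, with no common direction. PALLD, which organizes actin bundles, had 238 and 174 UMIs, at 0.84 (0.56 to 1.13), and the actin-bundling protein LCP1 had 92 and 62, at 0.96 (0.48 to 1.45). CYR61, a matricellular target of YAP, had 132 and 99 UMIs, at 0.81 (0.42 to 1.20), but at 0.23 after thinning. Its level was 206, 407, 151 and 431 CPM in cells with 0, 1, 2 to 4 and 5 or more KRT17 UMIs. The membrane mucin MUC4 had 89 and 61 UMIs, at 0.94. SREBF2, the master regulator of cholesterol synthesis genes, had 41 and 21 UMIs, at 1.36 (0.56 to 2.19). The interferon-induced genes IFIT2 and IFI16 stood at 1.51 and 1.04, but IFIT2 was at -0.08 when positive cells needed 2 KRT17 UMIs. C8orf4, AP1S3, HOOK2 and NUP153 completed the 15, at 1.69, 1.46, 1.23 and 1.31.

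The lowest ratios belonged to few genes with a shared role. PLAT, the tissue plasminogen activator, had 12 UMIs in positive and 45 in negative cells, a log2 ratio of -1.52 (-2.57 to -0.57), but it was at 0.45 in cells below the median depth. MT-ND4L, a subunit of respiratory complex I encoded in the mitochondrion, had 489 and 917 UMIs, at -0.52 (-0.68 to -0.36). The 13 mitochondrial transcripts had a pooled ratio of -0.11 (-0.13 to -0.08), with 2 above 0. In the transduced libraries described below 1 of the 13 rose and none fell, beside 2.09 and 1.01% of all genes tested. There 12 of the 13 had fitted log2 folds above 0, with a median of 0.17, and MT-ND4L stood at 0.23 (SE 0.10). The pooled ratio was -0.03 under KDM5A shRNA, 0.13 under KDM5A plus KDM5B shRNA and 0.13 under KDM5A cDNA. With CPI-455 the mitochondrial share had a median of 8.31% in positive and 9.31% in negative cells. SRSF2, a splicing factor, stood at -1.21 and C15orf48 at -1.22, and PTPRF, a receptor phosphatase, at -0.87. IST1, a membrane-remodelling protein, and AAMDC stood at -1.26 and -1.16, but at 0.50 and 0.30 with cells thinned and classed by thinned counts. PSMF1, KPNA1, RP11-571F15.3, COA5, SAMD8, TMX2, TOMM70A and MPRIP made up the 15, between -1.45 and -0.87.

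KDM5A had 45 UMIs in positive and 57 in negative cells, a log2 ratio of 0.05 (-0.55 to 0.64), and KDM5B had 39 and 47, at 0.12 (-0.53 to 0.77). At this depth neither differed detectably between the classes. In the KDM5A cDNA library KDM5A stood at 77 against 262 CPM, and over the 3 transduced libraries its fold was -0.81 (SE 0.29, edgeR adjusted p = 0.150); it passed at -1.31 without the KDM5A shRNA library and at -0.90 without the library labelled KDM5A and KDM5B shRNA. EGFR, the target of erlotinib, had levels of 361 and 263 CPM and a ratio of 0.46 (0.10 to 0.82), or 0.24 after thinning (-0.65 to 1.10). The nuclear RNA MALAT1 had 4920 and 3815 CPM and a ratio of 0.37 (0.27 to 0.46). Among transduced cells neither EGFR (-0.16, SE 0.15, edgeR adjusted p = 0.717) nor MALAT1 (-0.13, SE 0.09, edgeR adjusted p = 0.578) passed the test, but MALAT1 passed at -0.33 after thinning.

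The same split was then tested in the 3 transduced erlotinib libraries, whose cells the choice of members did not use. UMIs were summed per library and class, and edgeR's quasi-likelihood test compared classes within libraries, with 247 and 85, 88 and 36, and 52 and 53 positive and negative cells. Of 5025 genes tested, 105 (2.09%) rose and 51 (1.01%) fell in positive cells at an adjusted p under 0.05. The 3 libraries are different conditions rather than replicate cultures, so the p-values measure the spread between them. The calls were 61 and 30 without the KDM5A shRNA library, and 28 fell without the KDM5A cDNA library. Of the 105 and 51 called genes, 56 and 23 were still called without the KDM5A shRNA library. Those counts were 92 and 40 without the library labelled KDM5A and KDM5B shRNA, and 64 and 21 without the KDM5A cDNA library. Genes that no longer passed without the KDM5A shRNA library included AKAP12, NEXN, KRT18, GDA and C11orf54. The same held for KRT6A, CYP1B1 and GDA without the library labelled KDM5A and KDM5B shRNA, where BCAT1, MUC4 and S100A2 newly passed, and for KRT6A, KRT7, KRT18, CYP1B1 and ZNF83 without the KDM5A cDNA library. All 105 and 51 kept their sign when 1 library was left out, but these fits share libraries with the fit that called the genes. The kept signs are therefore no separate support. DESeq2 called 37 and 14, and with no library term 0 genes passed, with 310 at an unadjusted p under 0.05.

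Genes of the contractile actin cytoskeleton led the calls. TPM1, a tropomyosin that stabilizes actin filaments, stood at 2234 against 846 CPM in positive and negative cells with KDM5A shRNA, at 1475 against 453 with KDM5A and KDM5B shRNA and at 1605 against 504 with KDM5A cDNA. The pooled positive cells of each of these libraries lay above the negative cells of all 3, and the log2 fold was 1.59 (SE 0.11, edgeR adjusted p = 9.80e-11). With CPI-455 the levels of TPM1 were 735 and 625 CPM and the ratio 0.23 (-0.01 to 0.48), and in scrambled and untreated cells at 320 against 294 and 409 against 271 CPM. ACTN1, the actin crosslinker alpha-actinin, stood at 1123 against 414, 854 against 236 and 761 against 265 CPM in the transduced libraries, with a fitted fold of 1.59 (SE 0.13, edgeR adjusted p = 3.86e-09). With CPI-455 the levels of ACTN1 were 317 and 185 CPM and the ratio 0.77 (0.36 to 1.19). TAGLN and MYL9, a smooth muscle actin-binding protein and a myosin light chain, had the largest fitted folds of 2.80 and 2.68 (SE 0.30 and 0.24), but held only 3 and 4, and 18 and 15 UMIs in positive and negative CPI-455 cells. NEXN, GLIPR1, AKAP12, FN1 (fibronectin) and LCP1 also rose, with folds between 1.75 and 2.37, and all but LCP1 had under 50 UMIs with CPI-455. The wound keratin KRT6A rose by 1.70 (SE 0.43, edgeR adjusted p = 0.0231) and KRT7 by 0.32 (SE 0.08, edgeR adjusted p = 0.0262), while KRT18 had a fold of -0.42 (SE 0.09, edgeR adjusted p = 0.00839).

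Of the genes that fell, several are differentiated epithelial products. KLK7, a kallikrein protease of the cornified layer, stood at 162 against 679, 207 against 432 and 122 against 423 CPM in the transduced libraries, and its fold was -1.67 (SE 0.16, edgeR adjusted p = 6.43e-08). With CPI-455 its levels were 339 and 488 CPM and its ratio -0.52 (-0.85 to -0.20). KLK7 was lower in positive cells of both drug-free libraries too, at 8.00 against 74.5 and 58.9 against 132 CPM. The scrambled value of 8.00 CPM rests on 1 KLK7 UMI in 16 positive cells, too few to size the difference. ASS1, which makes argininosuccinate, fell by 1.27 (SE 0.19) and stood at -0.59 (-1.01 to -0.18) with CPI-455. KRT13, a keratin of wet mucosa, fell by 1.12 (SE 0.15, edgeR adjusted p = 1.25e-05). With CPI-455 KRT13 had 1347 and 1448 CPM, a ratio of -0.10 (-0.27 to 0.06). CYP1B1, a cytochrome P450, fell by 1.12 and stood at -1.07 (-1.99 to -0.21) with CPI-455. ZNF83, TNFSF10, GDA, ADIRF, C11orf54 and SNHG7 completed the 10 with the lowest folds, between -1.54 and -1.18.

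Most of these called genes had the same sign in the CPI-455 cells, with smaller values. Of the 105 that rose, 87 had at least 50 UMIs with CPI-455, of which 70 lay above 0 and 11 (12.6%) had a ratio of at least 1.5, beside 5.39% of all genes measured, and 4 had a ratio of at most the inverse. The median log2 ratio was 0.25 with CPI-455 and the median fitted fold 0.77 in the transduced libraries for the same genes. The 11 were ACTN1, MYH9, PALLD, ZYX, LCP1, CYR61, INHBA, TGFB2, PDGFB, DIO2 and C8orf4, named for this result after it was seen. Of the 51 that fell, 46 were measured, 38 lay below 0 and 3 (6.52%) had a ratio of at most the inverse, ASS1, CYP1B1 and NMB, a share near the 4.48% of all genes measured. Their medians were -0.23 and -0.77. After thinning, 61 of the 87 lay above 0 and 31 of the 46 below. In 84 of 87 and 46 of 46 genes the transduced libraries had the larger value in the called direction, but the genes were called on those values, and the difference between CPI-455 and the other libraries was not tested. Across 3077 genes measured in both, which are not independent replicates, Pearson's r was 0.227 and Spearman's rho 0.200. Over the 632 genes with at least 200 UMIs they were 0.421 and 0.329.

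**Figure D2:**
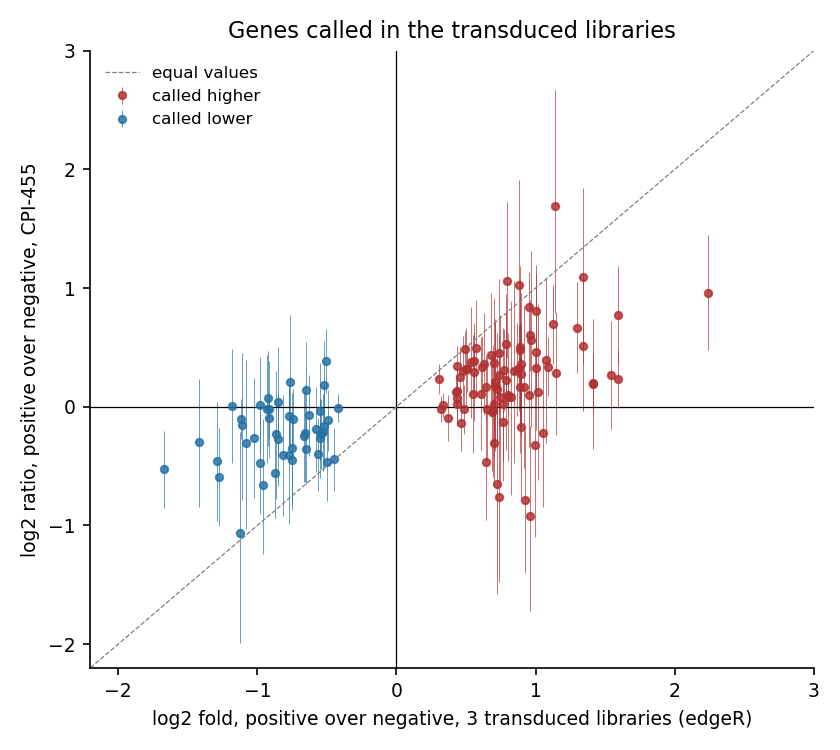
Log2 ratio of positive over negative cells with CPI-455 (vertical, bars are 95% counting intervals) against the fitted log2 fold in the 3 transduced erlotinib libraries (horizontal), 1 point per called gene with at least 50 UMIs with CPI-455. Of 87 genes called higher, 70 lie above 0, and 84 of them and all 46 called lower lie on the side of the dashed line of equal values where the transduced libraries have the larger value.

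**Figure D3:**
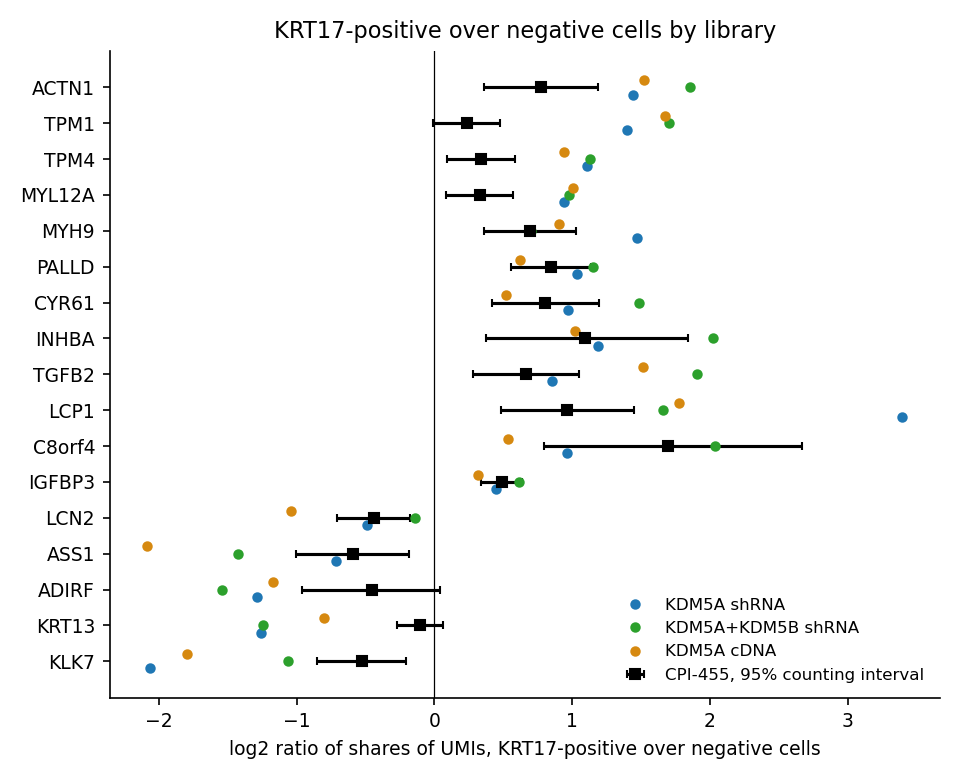
Log2 ratio of UMI shares, KRT17-positive over negative cells, for 17 genes chosen after their values were seen; squares are CPI-455 with 95% counting intervals, circles the 3 transduced erlotinib libraries. IGFBP3 lies between 0.31 and 0.61 in all 4 libraries, while TPM1 is at 0.23 with CPI-455 and at 1.40 or more in the others.

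Genes of a list of 31 for the contractile actin cytoskeleton mostly rose in the transduced libraries and had smaller ratios with CPI-455. In the transduced libraries 19 of its 27 tested members rose and none fell, with a median fitted fold of 0.62, against 2.09% of all genes called higher. With CPI-455, 25 members were measured, 22 lay above 0, beside 51.3% of all genes measured, and 4 had a ratio of at least 1.5, beside 5.39%: ACTN1, MYH9 (a non-muscle myosin heavy chain, 0.69), CNN3 (a calponin, 0.77) and ZYX (zyxin of focal adhesions, 1.06). The pooled ratio was 0.18 (0.13 to 0.23), or 0.28 (0.17 to 0.39) after thinning, against 0.65, 0.69 and 0.54 in the transduced erlotinib libraries, in the order above, and 0.11 and 0.07 in scrambled and untreated cells. Deep over shallow negative cells with CPI-455 gave 0.11 (0.04 to 0.18), and the part of depth in the ratio was not tested further. The beta-actin gene ACTB stood at 0.10 (-0.07 to 0.27) and the thymosin TMSB4X at 0.08 (-0.02 to 0.18) with CPI-455, while TPM4 stood at 0.34 (0.09 to 0.58) and MYL6 at 0.32 (0.13 to 0.51).

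By median share, this list was highest in the 11 CPI-455 cells with the most KRT17. These bands of KRT17 were set after the data were seen. The list took a median of 1.62% of UMIs per cell in cells with no KRT17 (0.687 to 3.42), 1.85% with 1 KRT17 UMI (1.28 to 2.72), 1.73% with 2 to 4 (1.31 to 2.22) and 2.72% with 5 or more (2.07 to 3.34). All 11 cells of the last band lay above the upper quartile of the negative cells, 2.01%. So did 12 of 34 cells with 1 KRT17 UMI and 5 of 13 with 2 to 4. The last band had a median of 4128 UMIs, against 5917.5 in cells with 1 KRT17 UMI. Its deepest cells held 13267, 14837 and 15233 of its 76807 UMIs, so they weigh most in its pooled levels. With those 11 cells left out, the pooled ratio of positive over negative cells was 0.03, against 0.18 with them. The genes called higher in the transduced libraries went to 0.07, from 0.19, and those called lower to -0.08, from -0.16. In the transduced erlotinib libraries the median share was 2.01, 2.42, 2.96 and 3.52% over the same 4 bands under KDM5A shRNA, 1.69, 2.39, 2.34 and 3.07% under KDM5A plus KDM5B shRNA, and 1.70, 1.90, 2.35 and 2.84% under KDM5A cDNA. The top band of CPI-455 cells thus lay near that of the KDM5A cDNA library, but it held 11 of 164 cells, against 174 of 332, 51 of 124 and 27 of 105. Bands of KRT17 UMIs also follow depth. Cells with 0 and with 5 or more had medians of 2755 and 4725.5 UMIs under KDM5A shRNA. The medians were 2918 and 7347 under KDM5A plus KDM5B shRNA, and 3541 and 4836 under KDM5A cDNA. The part of depth in these differences was not tested.

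**Figure D4:**
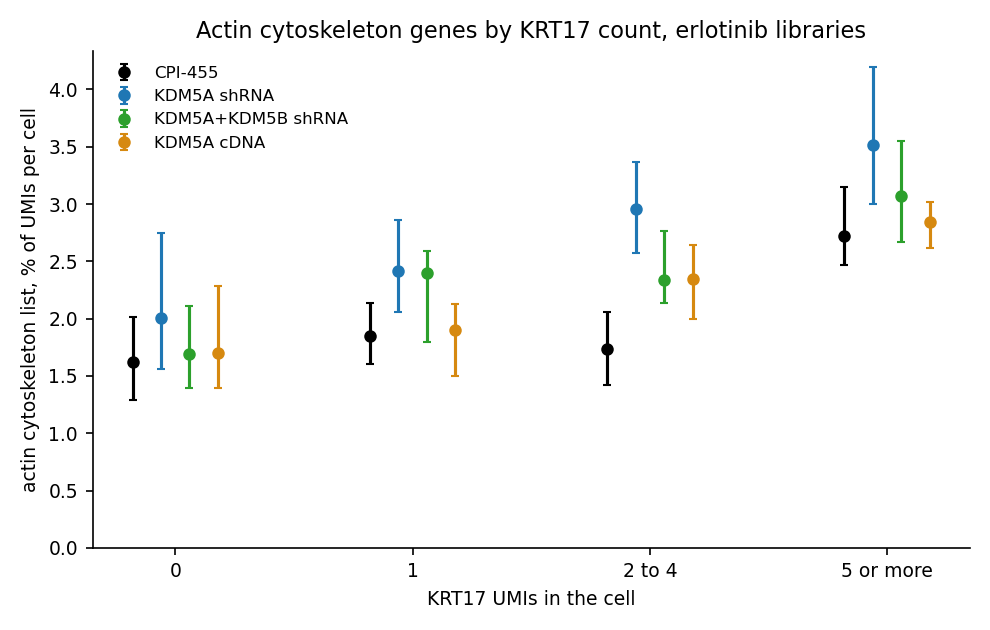
Share of each cell's UMIs (vertical, percent) from the 31 actin cytoskeleton genes by KRT17 UMIs in the cell (horizontal) in the 4 erlotinib libraries; points are medians over cells and bars the quartiles. With CPI-455 the median stays between 1.62 and 1.85% up to 4 KRT17 UMIs and is 2.72% at 5 or more.

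Single genes differed in the band at which they departed from the negative cells. Levels are pooled over each band, so deep cells weigh more, and intervals cover counting error only. ACTN1 stood at 185, 203 and 192 CPM in CPI-455 cells with 0, 1 and 2 to 4 KRT17 UMIs and at 757 CPM (575 to 978) with 5 or more. TPM1 stood at 625, 559 and 617 CPM and then at 1344 (1097 to 1630), so its whole-class ratio of 0.23 hid a higher level in 11 cells. PALLD stood at 363, 490, 549 and 1200 CPM, and SFN at 300, 393, 384 and 965 CPM, over the same bands. S100A2 was at 183, 314, 370 and 431 CPM, so cells with 1 KRT17 UMI already lay above the interval of the negative cells (147 to 226). KLK7 was at 488 and 481 CPM with 0 and 1 KRT17 UMI, at 192 (105 to 322) with 2 to 4 and at 78.3 (28.7 to 170) with 5 or more. In the top band of the transduced libraries KLK7 stood at 85.0, 150 and 35.8 CPM, close to the CPI-455 value. KRT13 stood at 1318 CPM (1073 to 1601) in that band with CPI-455 and at 114, 247 and 125 CPM in the others. The libraries already differed in KRT13 among cells with no KRT17. There it was at 1448 CPM with CPI-455 and at 331, 682 and 246 CPM in the transduced libraries. BCAT1, the gene with the highest bound, did not rest on those cells, with a ratio of 1.41 without them.

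**Figure D5:**
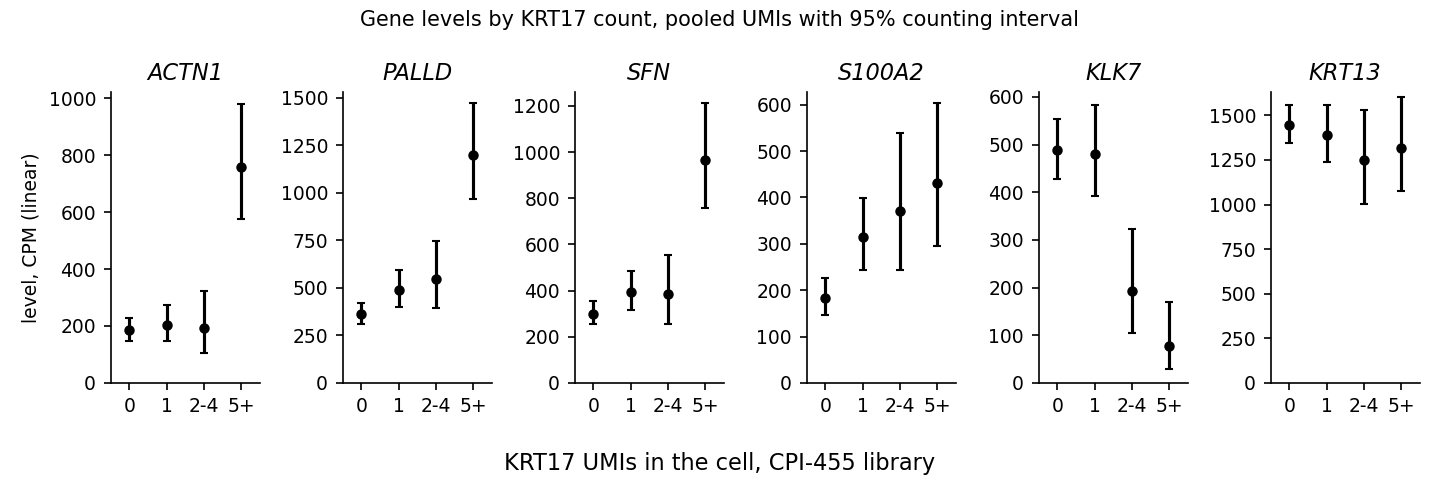
Level in CPM (vertical, linear, 95% Poisson interval of the pooled UMIs) of 6 genes chosen after their values were seen, by KRT17 UMIs in the cell (horizontal), in the CPI-455 library. ACTN1, PALLD and SFN are highest at 5 or more KRT17 UMIs, S100A2 is higher from 1, KLK7 is lower from 2, and KRT13 stays between 1248 and 1448 CPM.

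Several called genes share a promoter element that serum response factor is known to bind, the CArG box, best known from actin and muscle genes. Of the 105 genes that rose in the transduced libraries, 83 matched a RefSeq promoter (build GRCh38.p14, 250 bases before to 50 after a start), and 10 of these (12%) held a CArG box on either strand, against 1.74% of 3676 matched genes among all tested, 1.60% of all 27305 symbols and 1 of 35 genes that fell. GGAATG, the core bound by TEAD factors, was in 34.9, 15.1, 16.7 and 20% of the same 4 sets, and TGANTCA, the AP-1 site, in 8.43, 7.24, 9.37 and 14.3%. A symbol with several promoters counted once, as holding a motif if any of them did. Symbols with more promoters thus had more chances of a match, and promoter numbers were not compared between the sets. A match says only that these letters are present. For each of 5 genes, 1 box is shown on the gene's strand, in capitals, with 10 flanking bases on each side. This sets the shared letters beside the values of the genes. A further box of FHL2, at chr2:105438595-105438624 (minus), is not printed. The printed stretches lie at chr14:68977718-68977747 (minus strand), chr19:16067355-16067384 (plus), chr19:1026509-1026538 (plus), chr2:105399091-105399120 (minus) and chr3:99876214-99876243 (minus), in the order printed.
ACTN1: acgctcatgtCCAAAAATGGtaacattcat
TPM4: aatcctaggtCCAAATAAGGcgagggctgc
CNN2: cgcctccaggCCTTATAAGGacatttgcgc
FHL2: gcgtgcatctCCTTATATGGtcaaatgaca
FILIP1L: acgcggagcgCCTTATAAGGcagaacagtg

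These 5 genes had fitted log2 folds of 1.59 (ACTN1), 1.09 (TPM4), 1.00 (CNN2, a calponin), 0.58 (FHL2, a LIM-domain cofactor) and 1.54 (FILIP1L) in the transduced libraries. Their CPI-455 log2 ratios were 0.77, 0.34, 0.46, 0.50 and 0.27 in the same order, all above 0, with intervals that reached below 0 for CNN2 (-0.20 to 1.12) and FILIP1L (-0.19 to 0.73). The other 5 with a box were AKAP12, CAPN2, FBLIM1, GBP1 and ITGB6. GBP1, an interferon-induced GTPase, rose by 1.13 in the transduced libraries and stood at -0.50 (-1.55 to 0.49) with CPI-455, from 14 and 26 UMIs.

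Targets of YAP and TGF-beta also rose in part in the transduced libraries. There 6 of 14 tested members rose, beside 2.09% of all genes, and none fell. CYR61 rose by 1.00 (SE 0.15, edgeR adjusted p = 8.31e-05), INHBA, an activin subunit, by 1.34 (SE 0.14, edgeR adjusted p = 3.04e-07) and TGFB2, a TGF-beta ligand, by 1.30 (SE 0.16, edgeR adjusted p = 3.16e-06). With CPI-455 INHBA stood at 1.10 (0.37 to 1.84) and TGFB2 at 0.66 (0.28 to 1.05), and both were above 0 in all 6 libraries. The list had a pooled ratio of 0.21 (0.09 to 0.33) with CPI-455, with 8 of 12 measured members above 0 and 3 at 1.5-fold or more, beside 5.39% of all genes. It was 0.86, 1.21 and 0.51 in the transduced erlotinib libraries, in the order above, and 0.24 and 0.22 in scrambled and untreated cells. THBS1, a matrix glycoprotein that also responds to TGF-beta, stood at -0.01 (-0.40 to 0.38) with CPI-455 and did not pass among transduced cells, at 0.60 (SE 0.17, edgeR adjusted p = 0.0546).

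Some products of cornified and wounded epithelium fell in positive cells of the transduced libraries, though not as a whole list in each. Of 13 tested members 4 fell, beside 1.01% of all genes, and none rose, with LCN2, a secreted lipocalin, at -0.45 (SE 0.11, edgeR adjusted p = 0.0219). With CPI-455 the pooled ratio was -0.22 (-0.34 to -0.11), with 2 of 9 measured members above 0, and LCN2 was at -0.44 (-0.71 to -0.17). The list stood at -0.16 under KDM5A shRNA and -0.30 under KDM5A cDNA, but at 0.10 (0.00 to 0.20) in the library labelled KDM5A and KDM5B shRNA. Of mucosal and acute-phase genes 4 of 12 fell, again beside 1.01%. With CPI-455 that list had a pooled ratio of 0.00 (-0.17 to 0.18) at full depth and 0.43 (0.06 to 0.80) after thinning, and deep over shallow negative cells gave -0.39 (-0.62 to -0.14).

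Lipid synthesis genes had higher shares in positive cells with CPI-455, and also under KDM5A cDNA and in untreated cells. Of 14 measured genes of cholesterol and fatty acid synthesis, 12 lay above 0, beside 51.3% of all genes, and 5 had a ratio of at least 1.5, beside 5.39%, with a pooled ratio of 0.38 (0.23 to 0.52) and 0.25 after thinning (-0.09 to 0.57), while deep over shallow negative cells gave -0.26. DHCR7, of the last step of cholesterol synthesis, stood at 1.18 (0.39 to 2.01) and the synthase HMGCS1 at 1.00 (0.35 to 1.67). FASN, the fatty acid synthase and the 1 member past the fold in the other direction, stood at -0.67 (-1.48 to 0.09). The pooled ratio was 0.36 (0.22 to 0.49) under KDM5A cDNA and 0.25 (0.19 to 0.30) in untreated cells, and -0.10 (-0.29 to 0.10), 0.08 (-0.23 to 0.41) and -0.01 (-0.26 to 0.23) under KDM5A shRNA, in the library labelled KDM5A and KDM5B shRNA and in scrambled cells. Only 8 members could be tested among transduced cells, with 0 called by edgeR and a median fold of 0.12. At the 2.09 and 1.01% called over all genes, that count is near the background, and the differences between libraries were not tested. The ratio without the 11 cells of highest KRT17 was also 0.38, so it did not rest on them.

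Several other lists had CPI-455 intervals clear of 0 at full depth. The basal epithelium and hemidesmosome list stood at 0.28 (0.16 to 0.40). S100A2, SFN and the integrin ITGB4 (0.69) were its 3 of 8 measured members past the fold, beside 5.39% of all genes measured. It was at 0.16 (-0.14 to 0.44) after thinning and at 0.33, 0.43 and 0.36 in the transduced erlotinib libraries. There 2 of 15 tested members rose, beside 2.09% of all genes. AP-1 and immediate early genes stood at 0.24 (0.07 to 0.41), with FOS at 0.68 and the phosphatase DUSP1 at 1.10 but JUN at -0.25 and EGR1 at -0.48, and the list was at 0.18 (-0.22 to 0.58) after thinning. Nuclear long noncoding RNAs stood at 0.29 (0.21 to 0.37), and at 0.29 (0.11 to 0.46) after thinning, with 1800 of their 2438 UMIs in positive cells from MALAT1. Annexins stood at 0.16 (0.06 to 0.26) and at 0.32 (0.08 to 0.55) after thinning. Markers of alveolar type 1 cells stood at -0.17 (-0.29 to -0.06), mostly through CAV1, the caveolin of membrane pits, with 791 of 995 UMIs in positive cells, and at -0.15 (-0.43 to 0.13) after thinning.

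Lists of housekeeping genes lay close to 0 in the CPI-455 contrast. Ribosomal protein genes had a pooled ratio of -0.04, nuclear genes of oxidative phosphorylation -0.01, glycolysis 0.02 and heat shock genes 0.06. Genes of S phase and G2/M stood at 0.08 (-0.16 to 0.33) and 0.19 (0.05 to 0.33), and deep over shallow negative cells gave 0.09 and 0.24 for the same lists. After thinning they stood at 0.90 (0.31 to 1.49) and 0.15 (-0.20 to 0.50). The S phase value thus changed with thinning, for a reason that was not tested, and 1 of its 42 genes reached 50 UMIs. The S phase list was at -0.68, -0.72 and -0.16 in the transduced erlotinib libraries, and the G2/M list at 0.03, -1.23 (-1.39 to -1.07) and -0.10. By edgeR 0 of 5 and 0 of 20 tested members were called, beside 2.09 and 1.01% of all genes, so these counts are near the background. Of 22 genes taken from the drug tolerance literature, IGFBP3, an insulin-like growth factor binding protein, had 768 and 718 UMIs and a ratio of 0.49 (0.34 to 0.64) with CPI-455, or 0.28 (-0.06 to 0.61) after thinning. The 7 IGFBP genes together stood at 0.32 (0.20 to 0.44), and at 0.13 (-0.16 to 0.41) after thinning, and deep over shallow negative cells gave -0.31. IGFBP3 rose by 0.49 in the transduced libraries (SE 0.09, edgeR adjusted p = 0.000798) and was above 0 in scrambled and untreated cells too, at 0.80 and 0.60. ALDH3A1, an aldehyde dehydrogenase, fell by 0.92 in the transduced libraries (SE 0.11, edgeR adjusted p = 1.85e-06) and stood at -0.09 (-0.26 to 0.08) with CPI-455.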

How the data were processed

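The files deposited by the authors hold raw UMI counts, 1 row per gene symbol and 1 column per barcode, as their whole-number values show. The submitters' processing notes name STAR, FastQC and the builds GRCh37.p13 and hg19; versions, settings and the counting tool are not given in the sources used here. Genes were used by symbol. Cells kept had at least 1000 UMIs and at most 20% mitochondrial UMIs, 105 to 822 per library with 571873 to 3708703 UMIs; a count of 0 allows up to 3 UMIs, 0.809 to 5.25 CPM. No doublet caller was run on this single line. Python 3.11.15 (numpy 2.4.6, scipy 1.17.1) computed ratios of pooled shares with KRT17 removed, with exact conditional 95% intervals, and thinned cells to 1000 UMIs. Counts per library and class in the 3 transduced erlotinib libraries were tested with edgeR 4.0.16 (TMM, filterByExpr, robust quasi-likelihood test with library as a term, Benjamini-Hochberg adjustment; common coefficient of biological variation 0.0863). On simulated counts with 178 changed genes at 4-fold, among 4955, 99.4% were recovered, with 7 false calls. The simulation gave every gene the same variation, and recovery of changes below 4-fold, where most called genes lay, was not tested. In the CPI-455 library the text names the 15 highest and 15 lowest of genes with at least 50 UMIs and the same sign after thinning, ranked by the interval bound nearest 0; in the transduced libraries the 10 highest and 10 lowest called folds; in the 41 gene lists up to 4 members with most UMIs; and a fixed set of keratins, KDM5A, KDM5B, EGFR and MALAT1. ZYX, CNN3, INHBA, TGFB2, DHCR7, HMGCS1, FASN, KRT15 and others outside this rule were picked after their values were seen. The split and the lists were chosen with earlier results of these data known.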

Additional observations from a re-analysis of the deposited data

How the results depend on the processing

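The share of KRT17-positive cells in the CPI-455 library was between 30.2 and 41.1% under other limits on UMIs, mitochondrial share and barcodes, and 14% after thinning. With CPI-455 the counts of genes past 1.5-fold moved most with the number of genes measured. Higher and lower counts were 29 and 21 after thinning, 45 and 56 with cells also classed by thinned counts, 47 and 59 in cells below the median depth, 638 and 686 with at least 20 UMIs a gene and 44 and 21 with at least 100. They were 262 and 270 for the mean of per-cell shares. Leaving out barcodes that end in N gave 111 higher, and 2 or more KRT17 UMIs gave 249 lower. Of 38 named genes, 4 turned sign: AAMDC (0.30) and IST1 (0.50) with thinned classes, IFIT2 (-0.083) with 2 or more KRT17 UMIs, and PLAT (0.45) below the median depth. In 2 alternatives added after the data were seen, 173 and 109 genes passed with each positive cell beside the negative cell nearest in UMIs, and 140 and 145 without the 11 cells of highest KRT17. In the transduced libraries higher and lower calls were 37 and 14 with DESeq2, 36 and 15 after thinning, 23 and 11 with thinned classes, 53 and 12 over all 5 libraries other than CPI-455, and 0 and 0 without a library term. They were 18 lower with no filter and 84 lower at 500 UMIs. Leaving out 1 library in turn gave 61 to 138 higher and 28 to 63 lower. Of the 105 and 51 genes, 56 to 92 and 21 to 40 were still called. All kept their sign, in fits that share libraries with the fit that called them. The cause of these moves was not tested. The library term pairs the 2 classes of each library. Between conditions, no paired analysis was possible because each condition has 1 library. Depth limits genes under 50 UMIs and cells with 1 KRT17 UMI.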
